A study of Mus musculus with 8 samples.

Results

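The genes of cholesterol synthesis and of its transcriptional control were followed in the ventricles of tumor-bearing mice. They were 8 genes, taken from the merged count table by gene name, of 43346 genes listed. Hmgcs1, Idi1, Fdft1, Sqle and Lss encode enzymes of the pathway, Srebf1 and Srebf2 encode the sterol regulatory element binding proteins (SREBPs), and Insig1 encodes a sterol sensor that restrains them. Each of the 8 names matched 1 row, and all 8 genes had enough counts to be tested. Ventricular RNA came from 8 male C57BL/6 mice, 4 of which received 1000000 LLC1 cells (Lewis lung carcinoma, a mouse lung tumor line) under the skin of the flank at 7 weeks of age, whereas the other 4 received the PBS vehicle alone. Both groups were sampled 14 days later. The labels give no genetic change in either group. The vehicle contained no cells, so a response to injected cells as such cannot be told apart from a response to a growing tumor. Mice are named by group and by the code in their label, such as LLC1 1-2 or PBS 1-1.

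Cholesterol is built from acetyl-CoA through mevalonate, the isoprenoid diphosphates, squalene and lanosterol. When sterols in the membrane of the endoplasmic reticulum are plentiful, the proteins encoded by Insig1 and Insig2 hold the escort protein SCAP and its SREBP cargo there. When sterols fall, the complex moves to the Golgi, where the proteases encoded by Mbtps1 and Mbtps2 release the active factor. SREBP-2, from Srebf2, mainly raises the genes of cholesterol synthesis and uptake, and SREBP-1, from Srebf1, mainly those of fatty acid synthesis. The SREBPs act on messenger RNA levels only after this cleavage, so the level of their own transcripts is not a measure of their activity. The heart takes up most of its fuel as fatty acids and makes sterols at a low rate compared with liver.

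Levels are given as counts per 1000000 counts after TMM scaling (CPM), and changes as log2 fold changes of tumor-bearing over PBS-injected mice with their standard error (SE). The comparison used the quasi-likelihood test of edgeR, and FDR denotes the p-value from it, adjusted by Benjamini-Hochberg across the 16111 genes tested. In the other fits the adjustment ran over the genes kept in that fit, and for DESeq2 and limma-voom FDR denotes their own adjusted p. A gene was called when its FDR was under 0.05. An exact 2-sided permutation test on 4 mice against 4 cannot give a p under 0.0286. Libraries held 15342214 to 19747596 counts in tumor-bearing mice and 12480706 to 16192158 in PBS-injected mice, so that 1 CPM stood for 11.7 to 19.9 counts in a library. On the second principal component of log2 CPM, which held 25.2% of the variance, PBS 1-1 lay apart from the other 7 mice. Nothing in the labels says more about how mice were housed or libraries prepared in batches.

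The genes called changed in both directions. Of the 8 genes, 2 were higher in tumor-bearing mice (Srebf1 and Fdft1), 1 was lower (Idi1), and 5 were not called. Of all genes tested, 8.73% were called, 4.12% as higher and 4.61% as lower. An unadjusted p under 0.05 (edgeR) was found for 5 of the 8, beside 25.5% of all genes tested. The median log2 fold change of the 8 was -0.05, beside -0.01 over all genes tested. No overlap between groups was seen for 4 of the 8 (Srebf1, Fdft1, Idi1 and Sqle), compared with 17.2% of all genes tested. All changes were smaller than 2-fold. The call of Idi1, the only gene called lower, held in only 1 of 8 fits that each left out 1 mouse. The plot of levels by mouse shows all 8.

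**Figure D1:**
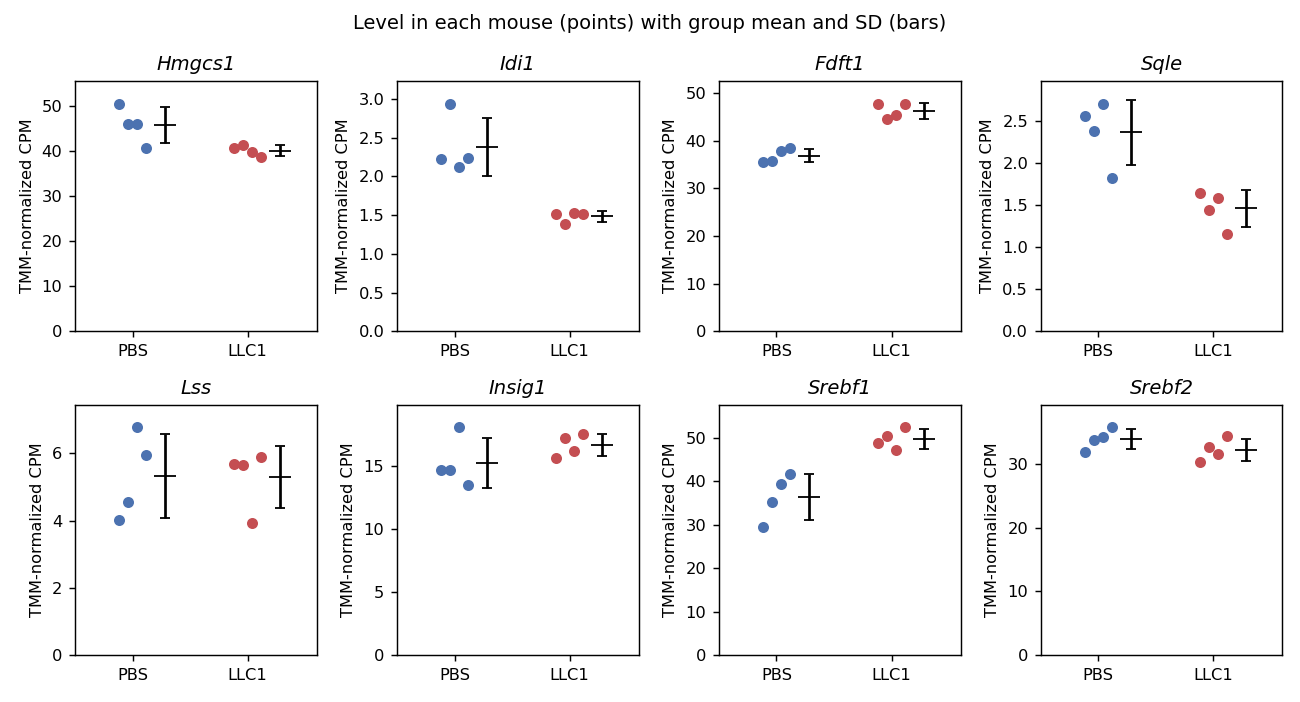
TMM-normalized CPM (y axes, each starting at 0) of the 8 genes in each of 4 PBS-injected and 4 tumor-bearing (LLC1) mice, as points, with the mean and SD of each group as bars. All tumor-bearing mice lie above all PBS-injected mice for Srebf1 and Fdft1 and below them for Idi1 and Sqle, while the groups overlap for Hmgcs1, Lss, Insig1 and Srebf2.

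Promoter sequences are shown for 4 of the genes, Hmgcs1 and Idi1 as enzymes and Srebf1 and Srebf2 as the pair of factors whose ratio was compared. They are from RefSeq (GRCm38.p6, the assembly of mm10) and run from 250 bases before a transcription start to 50 after it. The letters searched on both strands were TCACNCCAC, a form of the sterol regulatory element that SREBPs bind, and CCAAT, the box bound by the co-factor NF-Y. Both are in capitals, with ATTGG being CCAAT on the opposite strand.
Hmgcs1 (chr13:119690101-119690400, + strand): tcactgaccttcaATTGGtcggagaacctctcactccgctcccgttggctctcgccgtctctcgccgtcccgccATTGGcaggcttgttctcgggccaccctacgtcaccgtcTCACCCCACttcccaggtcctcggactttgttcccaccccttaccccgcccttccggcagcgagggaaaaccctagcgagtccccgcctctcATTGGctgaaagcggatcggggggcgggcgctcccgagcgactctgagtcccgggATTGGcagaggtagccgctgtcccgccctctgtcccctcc
Idi1 (chr13:8885356-8885655, + strand): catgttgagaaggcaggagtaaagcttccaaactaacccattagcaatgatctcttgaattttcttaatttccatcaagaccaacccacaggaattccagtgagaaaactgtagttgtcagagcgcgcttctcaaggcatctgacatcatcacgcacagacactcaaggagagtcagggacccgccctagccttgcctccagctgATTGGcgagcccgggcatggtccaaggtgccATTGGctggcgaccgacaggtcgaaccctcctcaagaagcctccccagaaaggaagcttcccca
Srebf1 (chr11:60210422-60210721, - strand): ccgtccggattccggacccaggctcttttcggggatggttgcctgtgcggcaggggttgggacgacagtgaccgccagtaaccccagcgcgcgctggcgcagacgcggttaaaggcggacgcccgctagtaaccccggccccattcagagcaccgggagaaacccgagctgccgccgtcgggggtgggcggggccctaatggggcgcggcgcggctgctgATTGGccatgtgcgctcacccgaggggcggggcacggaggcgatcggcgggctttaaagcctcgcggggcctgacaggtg
Srebf2 (chr15:82147019-82147318, + strand): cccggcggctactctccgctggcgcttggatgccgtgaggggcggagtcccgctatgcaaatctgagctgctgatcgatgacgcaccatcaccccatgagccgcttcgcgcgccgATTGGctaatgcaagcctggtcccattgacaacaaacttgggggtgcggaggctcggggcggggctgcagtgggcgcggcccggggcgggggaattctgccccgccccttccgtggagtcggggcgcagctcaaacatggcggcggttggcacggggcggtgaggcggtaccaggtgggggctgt

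Hmgcs1 held the sterol element letters once (TCACCCCAC, from base -137), and CCAAT 4 times. Over 32851 promoter windows of mouse genes, 1.24% held TCACNCCAC, 37.4% held CCAAT and 1.06% held CCAAT at least 4 times. Idi1 held CCAAT 2 times, from bases -45 and -14, and 11.7% of all windows held it at least 2 times. Srebf1 and Srebf2 held it 1 time each in the windows shown. Promoter windows were found for 57 of the 69 genes considered here (6 of the 8 members, without Fdft1 and Sqle), and among these 57 genes only Hmgcs1 held the letters TCACNCCAC. A window without these letters can hold other forms of the element. Srebf1 has 3 such windows, at separate starts, and the gene-level counts do not tell transcripts from these starts apart.

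Srebf1 (ENSMUSG00000020538, chromosome 11, 60199089 to 60222581) was higher in tumor-bearing mice. Its level was 48.8, 50.5, 47.1 and 52.4 CPM in LLC1 1-2, 1-3, 1-5 and 2-2, and 29.5, 35.2, 39.3 and 41.6 CPM in PBS 1-1, 1-3, 2-1 and 2-5. All 4 tumor-bearing mice lay above all 4 PBS-injected mice, and PBS 1-1 was the lowest of all. The means were 49.7 ± 2.26 CPM (SD, n = 4) and 36.4 ± 5.31 CPM (SD, n = 4), for a log2 fold change of 0.44 (SE 0.10, edgeR FDR = 0.0164), or 1.36-fold. The exact permutation test gave p = 0.0286. Leave-one-out fits, each lacking 1 mouse, called Srebf1 in 5 of 8, with log2 fold changes from 0.36 to 0.51, and the call was lost without LLC1 1-3 (FDR = 0.0512, edgeR), without LLC1 2-2 (FDR = 0.0524, edgeR) and without PBS 1-3 (FDR = 0.0652, edgeR). It kept its call without PBS 1-1 (FDR = 0.00800, edgeR) and lost it when libraries were scaled by total counts alone (log2 fold change 0.38, FDR = 0.0763, edgeR). The counts cover SREBP-1a and SREBP-1c transcripts together.

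Srebf2 (ENSMUSG00000022463, chromosome 15, 82147266 to 82205376) was not called. It had 30.3, 32.7, 31.6 and 34.4 CPM in LLC1 1-2, 1-3, 1-5 and 2-2, and 32.0, 33.9, 34.3 and 35.8 CPM in PBS 1-1, 1-3, 2-1 and 2-5. The groups overlapped, with 32.3 ± 1.72 CPM in tumor-bearing and 34.0 ± 1.58 CPM in PBS-injected mice (SD, n = 4). The fitted log2 fold change was -0.08 (SE 0.07, edgeR FDR = 0.520), with a 95% interval from -0.23 to 0.07.

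The difference between these genes was tested as the log2 ratio of Srebf1 to Srebf2 counts within each mouse. The ratio was 0.69, 0.63, 0.57 and 0.61 in LLC1 1-2, 1-3, 1-5 and 2-2, and -0.12, 0.06, 0.20 and 0.22 in PBS 1-1, 1-3, 2-1 and 2-5. Every tumor-bearing mouse had a higher ratio than every PBS-injected mouse, and the mean was higher by 0.54 on the log2 scale. The exact 2-sided permutation test gave p = 0.0286, the smallest that 4 mice against 4 allow, and 0.0571 after adjustment over the 2 ratios tested, so the difference did not pass the correction. The ratio within a mouse needs no scaling between libraries. Per kilobase of the gene length listed with the counts, Srebf1 and Srebf2 had similar levels in PBS-injected mice (6.46 ± 0.942 and 6.82 ± 0.316 CPM per kb, SD, n = 4), and their ranges overlapped. In tumor-bearing mice Srebf1 had 8.82 ± 0.401 and Srebf2 6.46 ± 0.345 CPM per kb (SD, n = 4), with no overlap.

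**Figure D2:**
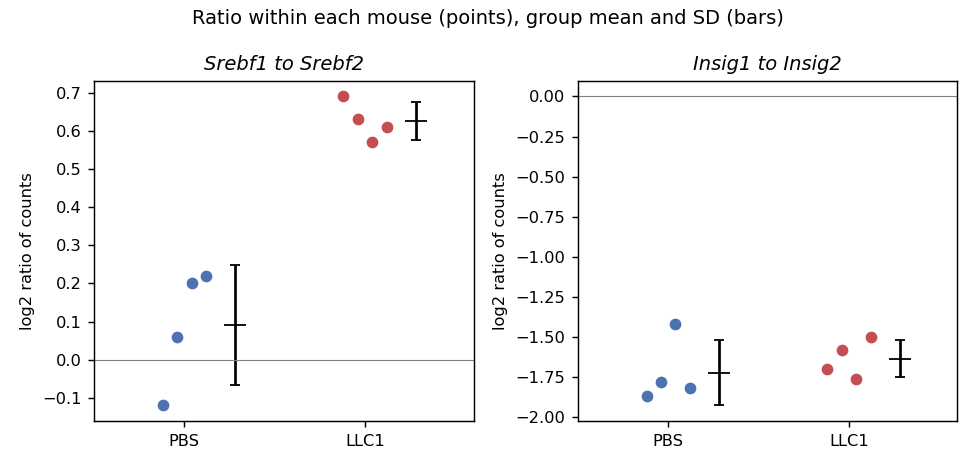
Log2 ratio of counts within each mouse (y axes) for Srebf1 to Srebf2 and for Insig1 to Insig2, with points for the 4 PBS-injected and 4 tumor-bearing (LLC1) mice and bars for the group mean and SD. The Srebf1 to Srebf2 ratio lies between 0.57 and 0.69 in tumor-bearing mice and between -0.12 and 0.22 in PBS-injected mice, while the Insig1 to Insig2 ratios overlap.

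Insig1 (ENSMUSG00000045294, chromosome 5, 28071363 to 28078662), which is itself a target of SREBPs, was not called. It had 15.7, 17.3, 16.2 and 17.6 CPM in LLC1 1-2, 1-3, 1-5 and 2-2, and 14.7, 14.7, 18.1 and 13.5 CPM in PBS 1-1, 1-3, 2-1 and 2-5. PBS 2-1 lay above all tumor-bearing mice and the other PBS-injected mice lay below them. The log2 fold change was 0.13 (SE 0.10, edgeR FDR = 0.441), with a 95% interval from -0.08 to 0.35. Insig2, its paralog, had 52.0 ± 2.32 CPM in tumor-bearing and 50.1 ± 2.70 CPM in PBS-injected mice (SD, n = 4) and a log2 fold change of 0.05 (FDR = 0.635, edgeR). The log2 ratio of Insig1 to Insig2 was -1.64 ± 0.12 (SD, n = 4) in tumor-bearing mice and -1.72 ± 0.21 (SD, n = 4) in PBS-injected mice (exact permutation test, p = 0.486).

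Hmgcs1 (ENSMUSG00000093930, chromosome 13, 119690462 to 119708086) encodes cytosolic HMG-CoA synthase, which makes HMG-CoA, the precursor of mevalonate. It had 40.7, 41.4, 39.7 and 38.7 CPM in LLC1 1-2, 1-3, 1-5 and 2-2, and 50.5, 46.1, 46.1 and 40.6 CPM in PBS 1-1, 1-3, 2-1 and 2-5. The tumor-bearing mice lay close together, and PBS 2-5 fell among them. The means were 40.1 ± 1.16 and 45.8 ± 4.06 CPM (SD, n = 4), for a log2 fold change of -0.19 (SE 0.07, edgeR FDR = 0.129). Hmgcs1 was called in 1 of the 8 leave-one-out fits, the fit without PBS 2-5 (log2 fold change -0.25, FDR = 0.0364, edgeR). Of its exon bases, 12.1% overlap Gm48342 on the other strand.

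Idi1 (ENSMUSG00000058258, chromosome 13, 8885501 to 8892451) encodes isopentenyl diphosphate isomerase, which forms the allylic isoprenoid unit. It was lower in tumor-bearing mice, at 1.52, 1.38, 1.53 and 1.51 CPM in LLC1 1-2, 1-3, 1-5 and 2-2 against 2.23, 2.94, 2.12 and 2.24 CPM in PBS 1-1, 1-3, 2-1 and 2-5. The groups did not overlap, and PBS 1-3 was the highest. The log2 fold change was -0.67 (SE 0.18, edgeR FDR = 0.0406). Idi1 had only 21 to 42 counts in a library. The call was lost with DESeq2 (adjusted p = 0.0896), with all genes of at least 1 count kept (FDR = 0.0767, edgeR), and in 7 of the 8 leave-one-out fits, leaving out any mouse but PBS 1-1, with log2 fold changes from -0.74 to -0.56 over the 8.

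The Idi1 count is also uncertain because the processed pseudogene Gm13502 on chromosome 2 is 100% identical to it over 684 bases. Gm13502 had 3, 7, 10 and 12 counts in LLC1 1-2, 1-3, 1-5 and 2-2, and 2, 4, 3 and 3 counts in PBS 1-1, 1-3, 2-1 and 2-5. With the counts of both added together, the level was 1.72, 1.84, 2.08 and 2.11 CPM in the tumor-bearing mice and 2.40, 3.22, 2.30 and 2.42 CPM in the PBS-injected mice. The summed levels still did not overlap, but the log2 fold change was -0.40 and was no longer called (FDR = 0.180, edgeR). Another similar transcript, Gm35570, is 97.7% identical to Idi1 over 681 bases, and 9.22% of the exon bases of Idi1 overlap Gm48574 on the other strand. How reads that match several places were counted is not given in the sources used here.

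Fdft1 (ENSMUSG00000021273, chromosome 14, 63145153 to 63177793) encodes squalene synthase, the enzyme that commits farnesyl diphosphate to sterols. It was higher in tumor-bearing mice, at 47.8, 44.5, 45.4 and 47.7 CPM in LLC1 1-2, 1-3, 1-5 and 2-2 against 35.6, 35.8, 37.8 and 38.5 CPM in PBS 1-1, 1-3, 2-1 and 2-5. The groups were well separated, the mice of each lying close together. The means were 46.4 ± 1.66 and 36.9 ± 1.45 CPM (SD, n = 4), for a log2 fold change of 0.33 (SE 0.06, edgeR FDR = 0.00991), or 1.26-fold. Fdft1 was called in every one of the 8 leave-one-out fits, with log2 fold changes from 0.31 to 0.35, and scaling by total counts alone was the only alternative that ended the call (log2 fold change 0.27, FDR = 0.0581, edgeR).

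The end of Fdft1 shares 767 bases with the end of Ctsb (cathepsin B), which lies on the other strand and has 5975 to 10705 counts in a library. In GENCODE release M21 the exons of Fdft1 and Ctsb share 774 bases, which is 18.3% of the exon bases of Fdft1 in that release. The Fdft1 length listed with the counts, 2860 bases, is shorter than in that release, so the share in the counted gene can be larger. The use of strand in counting is not given in the sources used here, so reads from the shared part cannot be assigned. Ctsb had a log2 fold change of -0.10 (FDR = 0.432, edgeR). The pseudogene Gm6781, which is 97.4% identical to Fdft1 over 1249 bases, had 13 to 36 counts.

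Sqle (ENSMUSG00000022351, chromosome 15, 59315077 to 59331192) encodes squalene epoxidase, a rate-limiting enzyme of the sterol branch. It had 1.65, 1.45, 1.59 and 1.16 CPM in LLC1 1-2, 1-3, 1-5 and 2-2, and 2.57, 2.38, 2.71 and 1.83 CPM in PBS 1-1, 1-3, 2-1 and 2-5. The groups did not overlap, but Sqle narrowly missed the threshold, with a log2 fold change of -0.70 (SE 0.20, edgeR FDR = 0.0516). The exact permutation test gave p = 0.0286. Over the 9 alternatives with all mice, Sqle was called in 3. Its FDR ran from 0.0389 (edgeR, first number of the mouse code as a covariate) to 0.0892 (DESeq2), and without PBS 2-5 it was 0.0300 (edgeR). It rests on 22 to 46 counts in a library.

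Lss (ENSMUSG00000033105, chromosome 10, 76531588 to 76557138) encodes lanosterol synthase, which closes the sterol rings. It had 5.69, 5.66, 3.94 and 5.89 CPM in LLC1 1-2, 1-3, 1-5 and 2-2, and 4.03, 4.56, 6.77 and 5.96 CPM in PBS 1-1, 1-3, 2-1 and 2-5. The spread within each group was far larger than the difference between them. The log2 fold change was -0.03 (SE 0.18, edgeR FDR = 0.944), and its 95% interval, from -0.43 to 0.37, includes changes as large as that of Fdft1. Lss rested on 47 to 117 counts in a library.

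Among the 8 genes in PBS-injected mice, the highest level per kilobase was that of Hmgcs1 (14.2 ± 1.26 CPM per kb, SD, n = 4), followed by Fdft1 (12.9 ± 0.506), whose range overlapped with it. Srebf2, Srebf1 and Insig1 came next, at 6.82, 6.46 and 5.65 CPM per kb, each overlapping with the next. Idi1, Lss and Sqle were lowest, at 0.680, 0.494 and 0.428 CPM per kb, again with overlap between neighbours. In tumor-bearing mice Fdft1 (16.2 ± 0.581 CPM per kb, SD, n = 4) lay above Hmgcs1 (12.4 ± 0.360) with no overlap. Lengths are those listed with the counts, which join all exons of a gene, so that the 10787 bases listed for Lss lower its value.

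The other enzymes of the pathway described here were 14, all of which were tested. None of the 14 was called by edgeR's quasi-likelihood test, and 0 had an unadjusted p under 0.05, beside 8.73% and 25.5% of all genes tested. Their log2 fold changes ran from -0.24 to 0.20. In the mevalonate part they were 0.20 for Acat2, 0.09 for Mvk, 0.02 for Pmvk and -0.08 for Mvd. Fdps, which makes farnesyl diphosphate just ahead of Fdft1, was at -0.03. After lanosterol they were -0.14 for Cyp51, -0.03 for Tm7sf2, -0.14 for Lbr, -0.23 for Msmo1, -0.21 for Nsdhl, -0.24 for Hsd17b7, 0.03 for Ebp, -0.06 for Sc5d and 0.20 for Dhcr7. Lbr was the only one of the 14 whose groups did not overlap, beside 17.2% of all genes tested.

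Together with the 5 enzymes described above, 19 enzymes of cholesterol synthesis are given here. Of these, 1 was higher (Fdft1), 1 was lower (Idi1) and 17 were not called, beside 4.12% higher and 4.61% lower among all genes tested. The Idi1 call held in only 1 of the 8 leave-one-out fits. A log2 fold change below 0 was found for 13 of the 19, and the median of the 19 was -0.06, beside -0.01 for all genes tested, of which 47.9% were above 0. The plot of levels along the pathway shows Fdft1 higher in tumor-bearing mice between Fdps, which was nearly level, and Sqle.

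**Figure D3:**
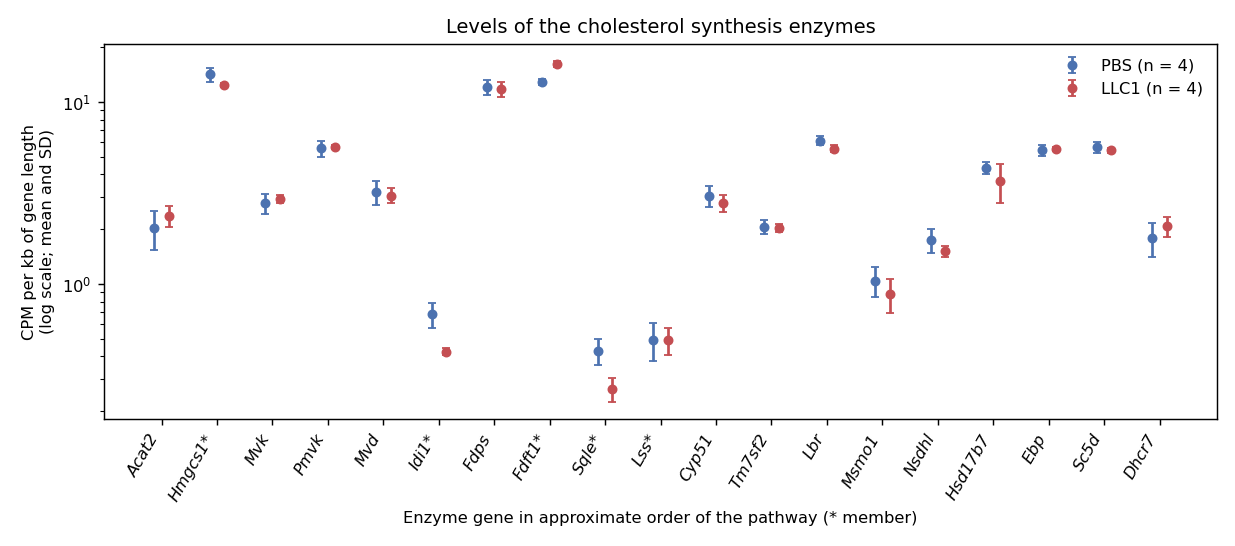
Mean level and SD (n = 4 mice per group) of 19 enzyme genes in CPM per kb of listed gene length on a log axis, in approximate order of the pathway, with an asterisk at the 5 enzymes described one by one. Fdft1 is higher in tumor-bearing (LLC1) mice, at 16.2 against 12.9 CPM per kb, while Idi1 (0.424 against 0.680) and Sqle (0.264 against 0.428) lie lower and most other enzymes overlap.

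Of 7 further genes for SREBP processing and sterol-regulated protein turnover, 1 was lower and none was higher, beside 4.61% lower and 4.12% higher among all genes tested. Mbtps2, which encodes the site-2 protease, was 15.1 to 18.1 CPM in tumor-bearing mice and 18.7 to 21.9 CPM in PBS-injected mice, with no overlap. The fitted log2 fold change was -0.32 (SE 0.09, edgeR FDR = 0.0412), and it was called in 3 of the 8 leave-one-out fits. Of the exon bases of Mbtps2, 28.4% are shared with Yy2 on the same strand. Scap, the escort of the SREBPs, had a log2 fold change of 0.22 and its groups did not overlap, but it was not called (FDR = 0.0892, edgeR). Mbtps1, which encodes the site-1 protease, was at 0.02 (FDR = 0.904, edgeR), and the ubiquitin ligase genes Rnf139 and Rnf145 were at -0.06 and -0.24, neither of them called. Faf2, whose product takes part in the removal of proteins from the endoplasmic reticulum, was at -0.14 and was not called either.

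Sterol uptake and transport genes described here, from a list drawn up around SREBP-2, were 5, all of them tested, of which 1 was lower, beside 4.61% of all genes tested. Whether SREBP-2 controls each of them was not tested. Stard4, which carries cholesterol between membranes, had 7.34 to 8.20 CPM in tumor-bearing mice and 10.1 to 13.7 CPM in PBS-injected mice. The log2 fold change of Stard4, -0.67 (SE 0.11, edgeR FDR = 0.00561), was called in all 9 alternatives with all mice and in every one of the 8 leave-one-out fits. Tmem97, Npc1, Npc2 and Lipa were not called.

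A list of 16 genes of fatty acid synthesis and related lipid metabolism was drawn up around SREBP-1. Of these, 1 was higher, 2 were lower and 13 were not called, beside 4.12% higher and 4.61% lower among all genes tested. An unadjusted p under 0.05 (edgeR) was found for 8 of the 16, beside 25.5% of all genes tested. The median log2 fold change of the 16 was -0.09. Acacb, which encodes the acetyl-CoA carboxylase of the mitochondrial surface, had 706 ± 62.3 CPM in tumor-bearing and 561 ± 43.4 CPM in PBS-injected mice (SD, n = 4), for a log2 fold change of 0.33 (SE 0.08, edgeR FDR = 0.0273). Fasn, fatty acid synthase, was close to it at 0.33 but was not called (FDR = 0.0641, edgeR). Acaca, which encodes the other acetyl-CoA carboxylase, was at -0.08 (FDR = 0.726, edgeR). Scd2, a fatty acid desaturase, fell to 14.2 ± 1.31 from 19.9 ± 3.21 CPM (SD, n = 4), for a log2 fold change of -0.49 (SE 0.12, edgeR FDR = 0.0254). Its paralog Scd1 was at -0.39 and missed the threshold (FDR = 0.0548, edgeR). Scd1 was called in 2 of the 9 alternatives with all mice and in 1 of the 8 leave-one-out fits, that without PBS 1-1 (FDR = 0.0108, edgeR). Since both genes are 95.5% identical over 623 bases, reads could be divided between them. Elovl5, a fatty acid elongase, was lower with a log2 fold change of -0.32 (FDR = 0.0424, edgeR). Leaving out each mouse in turn left Acacb, Scd2 and Elovl5 called in 3 of 8 fits each. With total counts only Acacb was not called (FDR = 0.128, edgeR), while Scd2 and Elovl5 were called in all 9 alternatives with all mice.

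Genes of the liver X receptors (LXRs), which sense oxysterols and raise Srebf1 and sterol efflux genes, were taken from a list of 10, of which 9 were tested and 2 were higher, beside 4.12% of all genes tested. Of the 9, 5 had an unadjusted p under 0.05 (edgeR), beside 25.5% of all genes tested. Nr1h2, which encodes LXR beta, had 62.6 ± 3.14 CPM in tumor-bearing and 49.5 ± 2.40 CPM in PBS-injected mice (SD, n = 4), for a log2 fold change of 0.34 (SE 0.06, edgeR FDR = 0.0101), and was called in every one of the 8 leave-one-out fits. Mylip, which encodes a ubiquitin ligase induced by LXRs, had a log2 fold change of 0.49 (SE 0.12, edgeR FDR = 0.0302) but was called in only 2 of those 8 fits. With total counts only, neither Nr1h2 (FDR = 0.0604, edgeR) nor Mylip (FDR = 0.0749, edgeR) was called. Nr1h3, which encodes LXR alpha, was at 0.31 (FDR = 0.0716, edgeR). The efflux transporters Abca1 and Abcg1 were at 0.14 and -0.51, neither of them called, and Ch25h, with 5 to 12 counts in a library, was not tested. None of the 9 genes of the isoprenoid branches (Ggps1, Pdss1, Pdss2, Dhdds, Nus1, Fnta, Fntb, Pggt1b and Coq2) was called by edgeR, though 4 had an unadjusted p under 0.05, beside 8.73% and 25.5% of all genes tested. Without PBS 1-1, Coq2 of the isoprenoid list (FDR = 0.0245, edgeR) and Soat1 of the LXR list (FDR = 0.0457, edgeR), which makes cholesterol esters, were called, although neither was in the fit with all mice. Without PBS 2-5, Nr1h3 (FDR = 0.0475, edgeR), Fasn (FDR = 0.0301, edgeR) and Pnpla3 of the fatty acid list (FDR = 0.0180, edgeR) were called in the same way. Over the 9 alternatives with all mice, Fasn was called in 3, Nus1 in 1, and Nr1h3, Pnpla3, Coq2 and Soat1 in 0. The plot of fold changes shows the 60 list genes that were tested and are reported here.

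**Figure D4:**
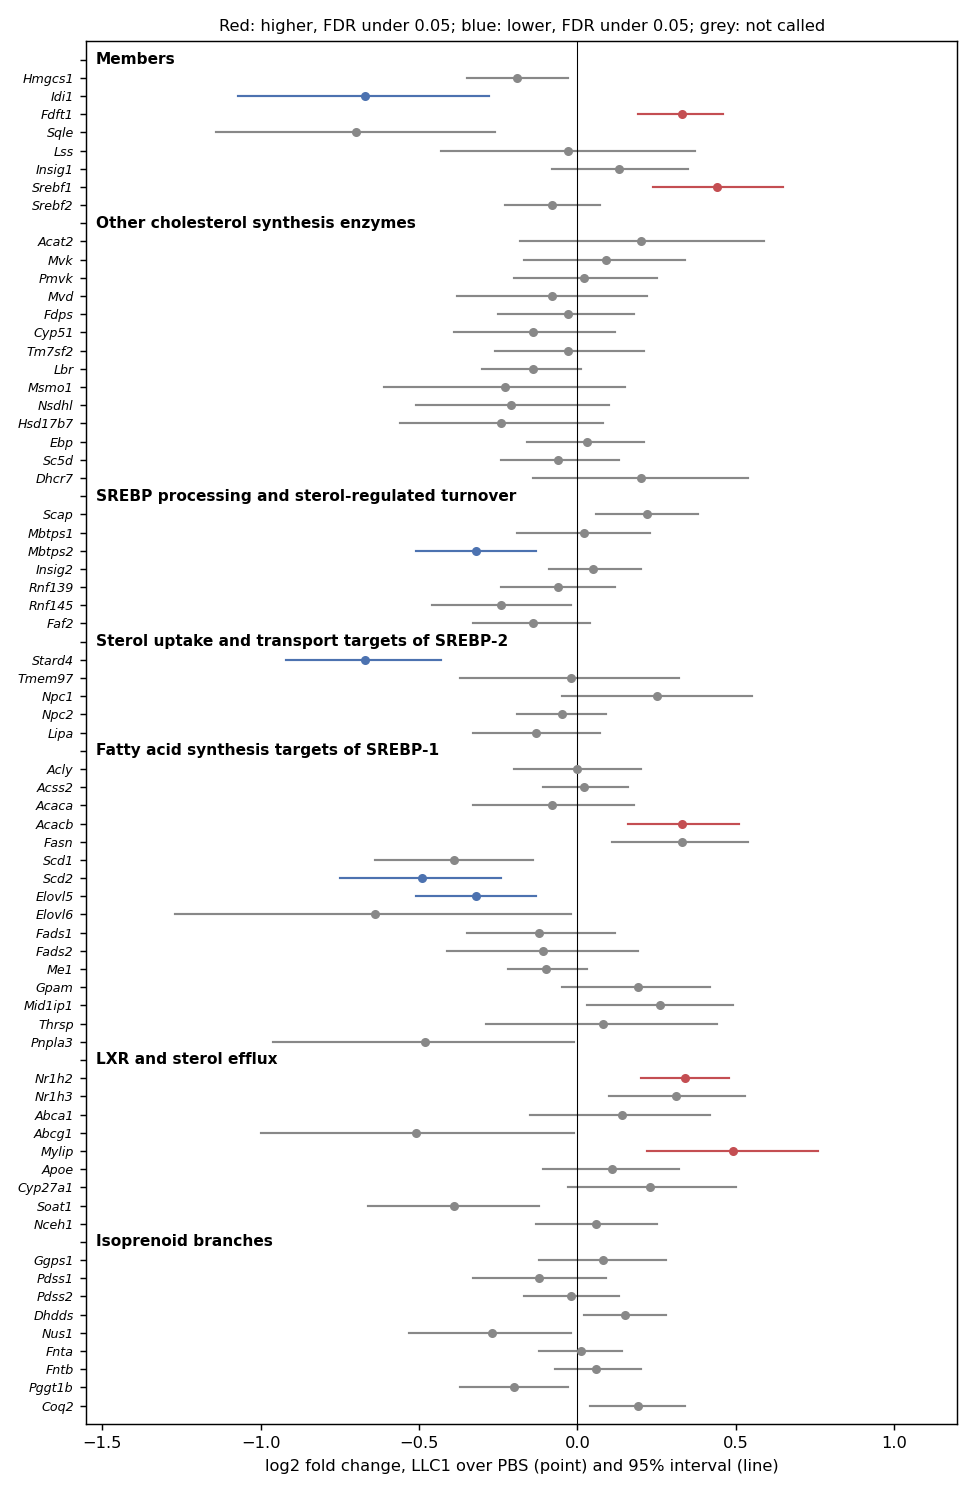
Log2 fold change of tumor-bearing (LLC1) over PBS-injected mice, as points, with its 95% interval from the edgeR fit, as lines, for the 8 members and the 60 tested genes of 6 lists. Red marks genes called higher, blue genes called lower and grey genes not called, and most genes of each list are grey.

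In bulk tissue, fewer cells of a type and less RNA per cell cannot be told apart. Cardiomyocyte markers were abundant, with a summed level of 87357 to 93852 CPM in tumor-bearing mice and 78434 to 80626 CPM in PBS-injected mice. Of the 6, 4 had a log2 fold change above 0 and 3 an unadjusted p under 0.05, with a median of 0.16. Only Myh6, the major myosin heavy chain of the adult mouse heart, was called, as higher (53471 to 56460 against 44721 to 47606 CPM, log2 fold change 0.24, FDR = 0.0209, edgeR), while Tnnt2 was at 0.22 (FDR = 0.0526, edgeR), Tnni3 at 0.20, Myl2 at 0.13, Actc1 at -0.05 and Ryr2 at -0.17. In a sum without Myh6, chosen after the values were seen, the groups overlapped, at 33430 to 37393 against 32758 to 34992 CPM. Beside the marker counts that follow, 4.61% of all genes tested were lower and 4.12% higher. All 6 endothelial markers had a log2 fold change below 0, with 2 of them called, and a summed level of 768 to 897 against 892 to 1174 CPM. Of 6 fibroblast markers 3 were lower, Col1a1, Col3a1 and Lum. The other 3 were not called, with log2 fold changes of -0.07 for Pdgfra, 0.07 for Dcn and -0.21 for Tcf21. The summed level of the 6 was 838 to 917 against 925 to 1308 CPM. Col3a1, at 229 ± 30.3 against 451 ± 119 CPM (SD, n = 4), made the largest difference in that sum. Of the markers of dividing cells, 3 were tested and all were lower, with a summed level of 2.04 to 4.49 against 13.4 to 42.3 CPM. Of 5 macrophage markers tested, all were below 0 and 1, Mrc1, was lower. None of the 5 markers of smooth muscle and pericytes was called by edgeR (2 with an unadjusted p under 0.05). The part of these cell types in the lower levels of Idi1, Sqle, Stard4 and Scd2 was not tested. The 6 adipocyte markers were low and none was tested, with a summed level of 0.553 to 2.57 against 0.354 to 1.89 CPM. The highest of them was Cfd, at 4 to 28 counts in a library and a level of up to 1.53 CPM, while Adipoq, Plin1 and Retn had at most 4 counts, Cidec at most 7 and Lep at most 1. Of the Schwann cell markers, Mbp was higher (log2 fold change 0.69, FDR = 0.0462, edgeR) and the summed level was 10.9 to 14.4 against 8.34 to 11.1 CPM. Erythroid, atrial, lymphocyte and brown adipocyte markers had no gene called by edgeR, with unadjusted p-values under 0.05 for 0, 1, 0 and 1 of them.

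Of the 28 pairs among the 8 genes, 13 had a positive correlation of log2 CPM within groups over 8 mice, with a median r of -0.03, as a description of libraries that share their depth and tissue. Single pairs ran from -0.84 for Hmgcs1 and Srebf1 to 0.82 for Lss and Srebf1. The mean standardized level of Hmgcs1, Sqle, Insig1, Fdft1, Idi1 and Lss was 0.73 in PBS 2-1 and between -0.42 and 0.12 in the other 7 mice. The 8 genes whose log2 CPM over the 8 mice was most like that mean were Ptgir, Ptpn6, 5031439G07Rik, Prrx1, Lbh, Fam117a, Smurf1 and Milr1, with Pearson r from 0.93 to 0.98. Of these 8, 5 were also chosen when libraries were scaled by total counts alone. They are the highest of all genes tested, ranked over only 8 mice, so r this high can arise by chance. The mean also joined genes that went opposite ways, such as Fdft1 and Idi1 (r = -0.91 over all mice), so it is no shared profile. Shared control was not tested.

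**Figure D5:**
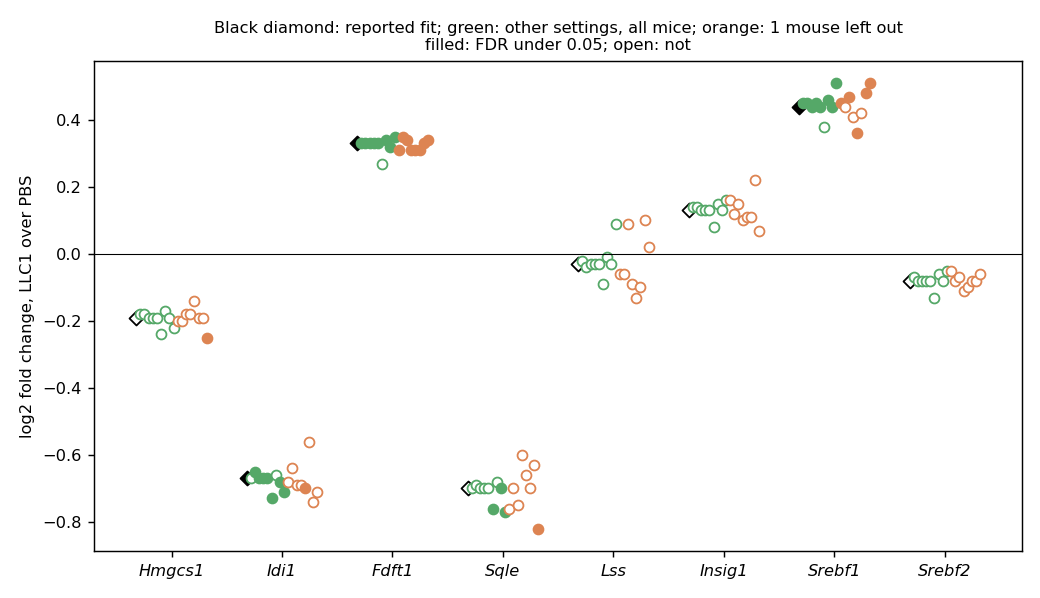
Log2 fold change of tumor-bearing over PBS-injected mice (y axis) for each of the 8 genes in the reported fit (black diamond), in the 9 alternatives with all mice (green) and in the 8 leave-one-out fits (orange), with filled symbols for an FDR under 0.05. Fdft1 runs from 0.27 to 0.35 and Srebf1 from 0.36 to 0.51, always above 0, Idi1 and Sqle lie between -0.82 and -0.56, and Lss crosses 0.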

How the data were processed

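The deposited file holds raw read counts, a column per mouse and a row per gene, which the authors made from 150-base paired-end TruSeq libraries of ventricular RNA sequenced on an Illumina HiSeq. The submitters' processing notes name CASAVA, STAR, featureCounts and build mm10, and the annotation, the strand setting and the treatment of reads with several matches are not given in the sources used here. Mice were grouped by their treatment label. Counts were fitted across all genes with edgeR 4.0.16 in R 4.3.3 (filterByExpr, TMM, glmQLFit, glmQLFTest), which is the test behind every FDR marked edgeR, and steps were tested on simulated data. P-values of edgeR weigh the difference between groups against the spread between mice, estimated with information from all genes. Those of the permutation test give the share of the 70 arrangements with a difference at least as large. The members, the lists and the tests were chosen with earlier results of these data known. Named were all members, the list genes called, all genes of cholesterol synthesis and SREBP processing that a result turns on, and the 8 genes most like the synthesis genes by Pearson r. Fasn, Scd1, Nr1h3 and other list genes that were not called, and Ctsb, Gm6781 and Gm13502, were named after their values were seen. Some genes of the lists are not reported here, and counts over the lists leave them out.

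Alternatives were DESeq2 1.42.0, limma-voom (limma 3.58.1), robust empirical Bayes, DESeq2 size factors or upper-quartile factors in edgeR, no filter beyond 1 count, a filter of at least 10 counts in every mouse, total counts only, the first number of the mouse code as a covariate, and each mouse left out. Adding Gm13502 to Idi1 was chosen after seeing the data. Ratios of Srebf1 to Srebf2 and of Insig1 to Insig2 used a prior count of 0.5. Exon overlaps and similar transcripts (BLAST 2.17.0, at least 95% identity over 150 bases) are from GENCODE release M21. Intervals are 95% intervals for the log2 fold change, with a width that reflects the spread between mice, and the count behind a value limits its precision.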

Additional observations from a re-analysis of the deposited data

Results flagged for a closer look

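Of 70 groups of 4 mice examined (the 8 genes, the other enzymes, the SREBP processing genes and the called genes of the other lists), 4 had a mouse set apart by the gap to its nearest neighbour (Dixon's criterion at 95%). Chance flags about 1 in 20 groups. Idi1 was flagged in both groups, through LLC1 1-3 (1.38 CPM, the others 1.51 to 1.53) and through PBS 1-3 (2.94 CPM, the others 2.12 to 2.24), at 21 to 42 counts in a library. Lss was flagged through LLC1 1-5, at 3.94 CPM against 5.66 to 5.89 in the other tumor-bearing mice. Dhcr7, which encodes the last enzyme of one branch of the pathway, was flagged through PBS 1-1, at 4.63 CPM against 7.22 to 7.73.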

How the results depend on the processing

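The call of Fdft1 as higher held in 8 of 9 alternatives and in every one of the 8 leave-one-out fits, while those of Srebf1 and Idi1 were lost in 3 and 7 of these 8. Of the 8 genes, the number called higher (2 as reported) was 0 with total counts only and 1 to 2 when each mouse was left out. The number called lower (1 as reported) was 0 with DESeq2 and with all genes of at least 1 count, 2 with total counts only, with at least 10 counts in every mouse and with the first number of the code as a covariate, and 0 to 2 when each mouse was left out. For the 60 tested genes of the lists, the number higher (3) was 0 with total counts only and 1 to 5 with a mouse left out, and the number lower (4) was 1 to 6 with a mouse left out. Over all genes, 663 were higher, against 225 with total counts only and 212 to 908 with a mouse left out, and 743 were lower, against 330 to 1041 with a mouse left out. Total counts alone moved the median log2 fold change of all genes from -0.01 to -0.06 and the share of calls that were higher from 47.2% to 22.1%, and the cause was not tested. Lss turned its sign, to 0.09 with the covariate, 0.09 without LLC1 1-5, 0.10 without PBS 2-1 and 0.02 without PBS 2-5, its leave-one-out values running from -0.13 to 0.10. The log2 ratio of Srebf1 to Srebf2 differed between groups by 0.47 to 0.58 with a mouse left out. For Insig1 to Insig2 the difference, 0.09 with all mice, ran from 0.04 to 0.19, the highest being without PBS 2-1 (exact permutation test, p = 0.0571). Idi1 and Sqle had 21 to 46 counts in a library, which limits their precision. No paired analysis was possible because the groups share only 1 mouse code, 1-3.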
